A study of Drosophila melanogaster with 6 samples.

Results

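Glycolysis is the cytosolic pathway that splits glucose to pyruvate, and lactate dehydrogenase turns that pyruvate into lactate while restoring NAD+. In the fly larva the pathway feeds growth, and the fat body, which combines tasks of liver and adipose tissue, also runs enzymes of the opposite direction that rebuild sugar phosphates from smaller carbon units. Adipokinetic hormone (AKH) is the fly counterpart of glucagon, the hormone that raises circulating sugar in vertebrates.

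The transcripts described here are those of the core glycolytic enzymes and of lactate dehydrogenase, taken by FlyBase symbol: Hex-A, Pfk, Ald1, Tpi, Gapdh1, Gapdh2, Pgk, Eno, Pyk and Ldh. Of these 10 genes, 9 were matched by identifier among the 15796 genes counted. The identifier that the reference name table gives for PyK (pyruvate kinase) matched no row, so that step was not analysed here. RNA came from fat bodies of late 3rd instar Drosophila melanogaster larvae labelled as strain w1118. The 3 control libraries carried R4-Gal4/+, a driver active in the fat body, and the 3 AKH libraries carried UAS-AKH/+; R4-Gal4/+. Controls held no UAS insertion, so an effect of the insertion and of the hormone cannot be told apart. Whether each library was made from its own larvae is not stated in the labels. The p-values therefore describe how these libraries differ, part of which may be technical.

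The libraries held 29803513 to 33150911 counts. Akh itself was at 2.26, 2.45 and 1.82 CPM (counts relative to the scaled size of each library) in control replicates 1 to 3 and at 2088, 1635 and 1839 CPM in AKH replicates 1 to 3, a check of the labels. The tissue label was checked with 11 fat body markers, whose summed level was 342192 to 483291 CPM in controls and 373462 to 447091 CPM with AKH, and of which 1 was called lower. RNA of other tissues was also present: 6 salivary glue genes summed to 22889.6 to 27061 CPM in controls and 18850.5 to 29025 CPM with AKH. The 14 midgut markers found summed to 1525 to 4207 CPM in controls and 4.75 to 737 CPM with AKH, and 1 of 10 tested was called lower. In AKH replicates 1 and 2, 1 and 5 of those 14 had a count of 0. The 14 muscle markers summed to 128 to 161 CPM in controls and 104 to 122 CPM with AKH, none at a count of 0, and 2 were called lower. Over all tested genes 1.91% were called lower. In CPM the AKH libraries lay below all controls for 10 of the 14 muscle markers and above all controls for 1. Those shares were 13.5% and 10.8% over all tested genes. The log2 fold change (AKH against control) was below 0 for 13 of the 14.

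At the level of single genes, 0 of the 9 enzyme transcripts were called between the groups, while 3 enzymes of the opposite direction were called lower. A transcript without a call is not thereby shown to be unchanged. Pfk, Gapdh2, Pgk and Eno were 1.29 to 1.41 times as high in the AKH libraries as in controls, and Ldh was 0.642 times as high. The adjusted p-values of these 5 ran from 0.114 (Ldh) to 0.165 (Pgk). Hex-A, Ald1, Tpi and Gapdh1 lay between 0.831 and 1.06 times the control level. Their libraries overlapped in CPM, but those of Ald1 and Gapdh1 did not in RPKM (reads relative to gene length and to library total, without the scaling factor). By contrast fbp, Pepck2 and PCB, which carry gluconeogenic steps, fell to between 0.21 and 0.479 times the control level. Of the 6 fits that left out 1 library, the call was lost in 4 for fbp and in 5 each for Pepck2 and PCB. Adjusted p-values of genes come from edgeR's quasi-likelihood F test, adjusted by Benjamini-Hochberg over the 10705 genes tested, and a gene is called when its value is under 0.05. In whole tissue, fewer cells of a type and less RNA per cell cannot be told apart.

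All 9 genes passed the filter on low counts. edgeR called 0 of the 9, where the background was 3.77% of all tested genes (1.87% higher and 1.91% lower). At an unadjusted p under 0.05, 5 of the 9 passed, 4 higher and 1 lower, against a background of 18.0%. DESeq2 called 4 of the 9 against a background of 8.28%. They were Pfk, Gapdh2 and Eno higher (background 3.31%) and Ldh lower (4.97%). limma-voom called 0 against a background of 3.48%. The CPM of the groups did not overlap in 5 of the 9, 4 higher and 1 lower. Of all tested genes 24.3% showed no overlap, 10.8% higher and 13.5% lower. In RPKM 6 of the 9 showed none, 5 higher and 1 lower, against 20.6% of all tested genes, 10.5% higher and 10.2% lower. Ald1 and Gapdh1 were apart on that scale alone, and Ldh in CPM alone. The median log2 fold change (AKH against control) was 0.08 over the 9 genes and 0.02 over all tested genes.

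**Figure D1:**
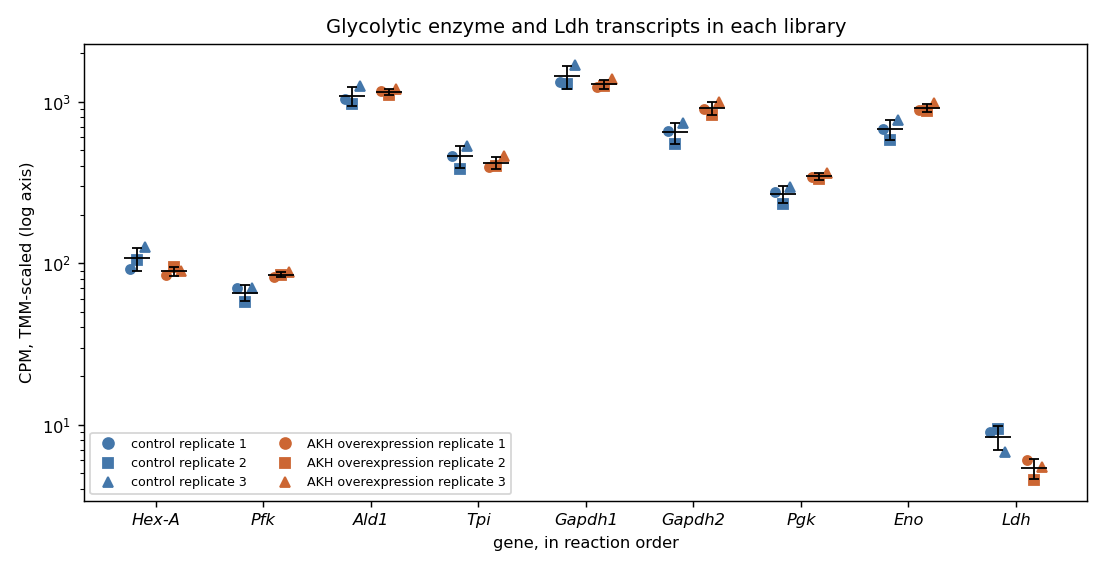
CPM of the 9 transcripts in each library on a log axis, in reaction order; points are libraries, the bar is the mean and the whiskers the SD of 3. The AKH libraries lie above all controls for Pfk, Gapdh2, Pgk and Eno and below all controls for Ldh, where they reach 4.53 to 6.06 CPM.

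The pathway opens with glucose phosphorylation. Hex-A (FBgn0001186), a hexokinase, was at 91.4, 104 and 126 CPM in control replicates 1 to 3 and at 83.9, 94.5 and 88.8 CPM in AKH replicates 1 to 3. Control replicate 1 lay within the AKH range, so the groups overlap. The mean was 107 ± 17.4 CPM in controls and 89.1 ± 5.31 CPM with AKH (SD, n = 3 each). The log2 fold change was -0.27 (SE 0.13, 95% interval -0.58 to 0.04, adjusted p = 0.348).

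Pfk (FBgn0003071) encodes phosphofructokinase, which makes fructose-1,6-bisphosphate and is the main control point of the pathway. It stood at 69.9, 57.1 and 70.0 CPM in controls and at 82.3, 84.1 and 87.9 CPM with AKH. Every AKH library was above every control, and control replicate 2 was the lowest of the 6. The log2 fold change was 0.37 (SE 0.10, 95% interval 0.13 to 0.61, adjusted p = 0.115). The intervals given here are not adjusted over genes. Among the alternatives DESeq2 alone called Pfk (adjusted p = 0.0403).

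The next enzymes split the 6-carbon sugar and interconvert its products. Ald1 (FBgn0000064), fructose-bisphosphate aldolase, was at 1046, 963 and 1258 CPM in controls and at 1163, 1101 and 1196 CPM with AKH. Its AKH values in CPM all lay inside the control range (log2 fold change 0.08, SE 0.13, 95% interval -0.22 to 0.39, adjusted p = 0.797). Without control replicate 2 the sign turned (-0.017). On the RPKM scale the groups were apart, at 646, 621 and 654 in controls and at 686, 707 and 675 with AKH. Tpi (FBgn0086355), triosephosphate isomerase, was at 461, 385 and 528 CPM in controls and at 393, 401 and 462 CPM with AKH. The AKH values of Tpi also lay within the control range (log2 fold change -0.13, SE 0.14, 95% interval -0.47 to 0.21, adjusted p = 0.697).

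Glyceraldehyde-3-phosphate dehydrogenase, the NAD+-dependent step, is encoded in the fly by a pair of genes. Gapdh1 (FBgn0001091) was at 1326, 1280.3 and 1693 CPM in controls and at 1224, 1246 and 1383 CPM with AKH. Gapdh2 (FBgn0001092) was at 655, 544 and 735 CPM in controls and at 899, 828 and 999 CPM with AKH. In CPM the groups overlap for Gapdh1, whereas for Gapdh2 the lowest AKH library lies above the highest control. In RPKM the AKH libraries of Gapdh1, at 877, 972 and 948, were all below the controls, at 993, 1002 and 1069.6. The log2 fold changes were -0.16 for Gapdh1 (SE 0.14, 95% interval -0.50 to 0.18, adjusted p = 0.627) and 0.50 for Gapdh2 (SE 0.14, 95% interval 0.15 to 0.84, adjusted p = 0.136).

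Within a library the ratio of these paralogs does not depend on scaling. The ratio of Gapdh1 to Gapdh2 in RPKM was 2.08, 2.42 and 2.37 in controls and 1.40, 1.55 and 1.42 with AKH. All AKH ratios were below all control ratios. The log2 ratio differed by -0.65 (SE 0.08; exact two-sided permutation test, p = 0.1, the smallest that 3 against 3 libraries allow; 0.2 after adjustment over the 4 gene pairs compared). The SD of the log2 ratio was 0.12 in controls and 0.08 with AKH. The coding regions of these paralogs are alike, and the sources used here do not give how reads matching both were counted, so the size of each gene's level is uncertain.

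The lower pathway regenerates ATP. Pgk (FBgn0250906), phosphoglycerate kinase, was at 274, 232 and 297 CPM in controls and at 343, 329.7 and 359.7 CPM with AKH. Eno (FBgn0000579), enolase, was at 682, 580.2 and 766 CPM in controls and at 894, 871 and 976 CPM with AKH. For both genes control replicate 2 was lowest, AKH replicate 3 highest, and the groups did not overlap. The log2 fold changes were 0.36 for Pgk (SE 0.11, 95% interval 0.09 to 0.64, adjusted p = 0.165) and 0.43 for Eno (SE 0.13, 95% interval 0.12 to 0.74, adjusted p = 0.145). In the reference annotation Pgk overlaps 2 genes of the opposite strand. The larger is Bacc, whose total over the 6 libraries was 135% of that of Pgk (log2 fold change 0.19, SE 0.11, adjusted p = 0.445). The other is Cwc25 at 3.13% of it. The sources used here do not give the treatment of strand, so reads of Pgk and Bacc may be shared.

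Ldh (FBgn0001258), lactate dehydrogenase, was the rarest of the 9 transcripts and its AKH libraries were all below the controls. It was at 8.94, 9.38 and 6.71 CPM in controls and at 6.06, 4.53 and 5.49 CPM with AKH. Control replicate 3 came closest to the AKH libraries. The mean was 8.34 ± 1.43 CPM in controls and 5.36 ± 0.771 CPM with AKH (SD, n = 3 each), and the counts behind these values were 150 to 303 per library. The log2 fold change was -0.64 (SE 0.17, 95% interval -1.05 to -0.23, adjusted p = 0.114). On the RPKM scale the groups overlapped, since control replicate 3 at 4.06 was below AKH replicate 1 at 4.15. DESeq2 alone among the alternatives called the gene (adjusted p = 0.0436). Ldh reoxidises NADH in the cytosol, as does Gpdh1, glycerol-3-phosphate dehydrogenase, by way of glycerol-3-phosphate. Gpdh1 fell from 632 ± 64.3 to 321 ± 55.7 CPM (SD, n = 3 each; log2 fold change -0.98, SE 0.15, adjusted p = 0.0251). Leaving out replicate 1 or 3 of either group ended that call (adjusted p up to 0.112). The ratio of Ldh to Gpdh1 in RPKM was 0.0176, 0.0211 and 0.0123 in controls and 0.0286, 0.0151 and 0.0220 with AKH. The groups overlap in that ratio (difference in log2 ratio 0.35, SE 0.35; exact two-sided permutation test, p = 0.4, and 0.4 after adjustment over the 4 pairs).

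**Figure D2:**
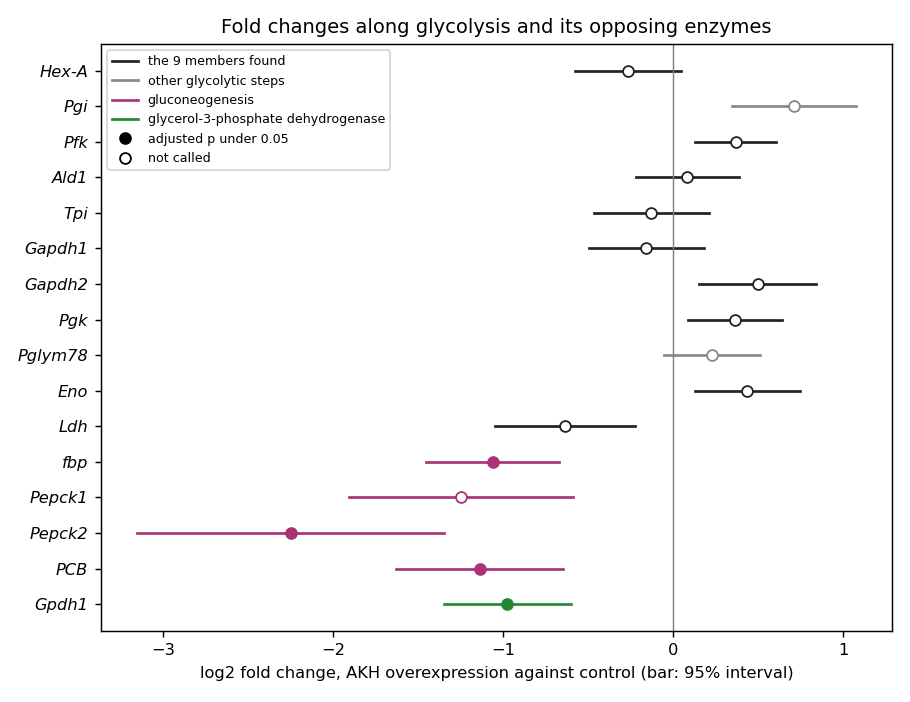
Log2 fold change of AKH overexpression against control with its 95% interval for the 9 enzyme transcripts, 2 other glycolytic steps, 4 gluconeogenic genes and Gpdh1; filled points have an adjusted p under 0.05. The glycolytic transcripts lie between -0.64 (Ldh) and 0.71 (Pgi), and the filled points are fbp, Pepck2, PCB and Gpdh1, all below 0.

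Levels can be set against each other between genes only per length. In control RPKM the order was Gapdh1 (1022 ± 41.6), Ald1 (640.2 ± 17.4), Gapdh2 (447 ± 31.9), Tpi (366 ± 25.3), Eno (295 ± 17.4), Pgk (149 ± 9.73), Hex-A (35.5 ± 3.29), Pfk (20.04 ± 1.95) and Ldh (5.83 ± 1.57), as mean ± SD of n = 3. No neighbours in that order overlapped. The span from Gapdh1 to Ldh was 175-fold. Gapdh1 ranked 105 and Ldh ranked 5064 of 10704 tested genes with an RPKM value. The genes from Ald1 to Eno in reaction order sat above Hex-A and Pfk, the kinases that open the pathway. Pgk, the lowest of those genes, was 4.20 times as high as Hex-A.

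With AKH the order changed at a single place. Eno (404 ± 12.4 RPKM) stood above Tpi (340.4 ± 21.5 RPKM) in each of the 3 AKH libraries, where Tpi had been above Eno in each of the 3 controls. Gapdh2 (639.6 ± 22.5 RPKM) came within 1.08-fold of Ald1 (689 ± 16.3 RPKM), compared with 1.43-fold in controls. Hex-A (30.1 ± 3.56 RPKM) and Pfk (26.2 ± 1.51 RPKM) were the only neighbours whose ranges overlapped. Gapdh1 at 932 ± 49.5 RPKM was 251-fold above Ldh at 3.71 ± 0.395 RPKM. Each RPKM value rests on 1 length per gene, 1235 to 3253 bases among the 9.

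**Figure D3:**
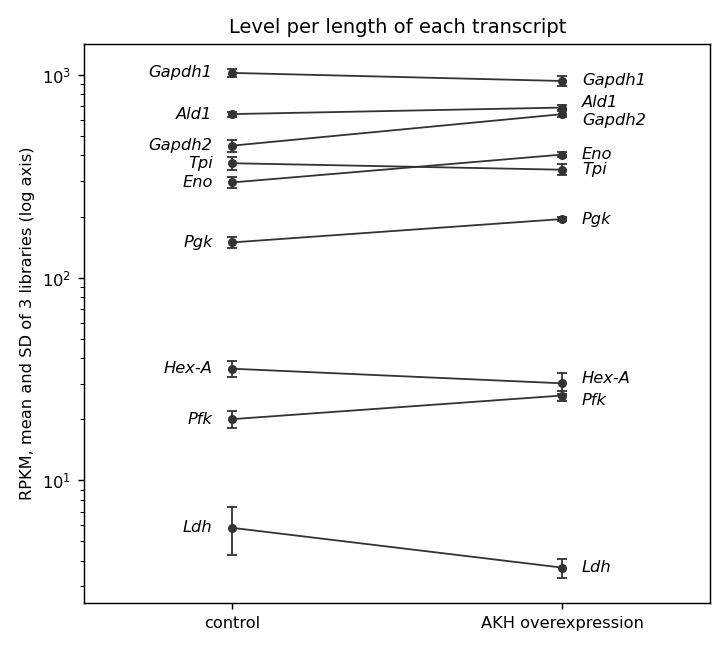
Mean RPKM with SD (n = 3 libraries) of each transcript in controls and with AKH overexpression, on a log axis. The lines of Eno and Tpi cross, from 295 and 366 RPKM in controls to 404 and 340.4 RPKM with AKH, while Ldh stays lowest in both groups.

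The order of libraries within a group was alike for most of the 9 transcripts and depended on scaling. On the CPM scale control replicate 3 was the highest control for 8 of the 9 genes and control replicate 2 the lowest for 7. AKH replicate 3 was the highest AKH library for 7. Control replicate 3 also had the smallest scaling factor, 0.874, against 0.949 to 1.08 in the other 5 libraries. On the RPKM scale, without that factor, control replicate 3 was highest for 2 genes and control replicate 1 for 5. The coefficient of variation among controls, leaving out Ldh, was 11.3% to 16.2% in CPM and 2.73% to 9.75% in RPKM. For Ldh it went the other way, at 17.1% in CPM and 26.9% in RPKM. Among AKH libraries, leaving out Ldh, the coefficient was 3.37% to 9.43% in CPM and 2.36% to 11.8% in RPKM. With library size as the only scaling, edgeR called Gapdh2, Pgk and Eno higher (adjusted p = 0.0167, 0.0477 and 0.0202), where the background of higher calls was 2.60%. limma on log2(RPKM + 1) called Gapdh2 and Eno higher (adjusted p = 0.0345 and 0.0434), with a background of 2.31%. As a share of all counts, the 9 genes took 0.479%, 0.450% and 0.479% in controls and 0.504%, 0.536% and 0.527% with AKH, with no overlap. Their summed CPM did overlap, at 4156 to 5481 in controls and 4961 to 5557 with AKH.

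The remaining glycolytic genes came from a list of 15, all found, of which 13 were tested. edgeR and limma-voom called 0 of the 13. At an unadjusted p under 0.05 there were 2, no larger a share than the background of 18.0%. DESeq2 called 2, both higher, against a background of 3.31%. The median log2 fold change was 0.18. Pgi, the isomerase between hexokinase and phosphofructokinase, was at 507, 432 and 616 CPM in controls and at 774, 887 and 884 CPM with AKH. Its groups did not overlap (log2 fold change 0.71, SE 0.15, 95% interval 0.35 to 1.08, adjusted p = 0.0637). It was called under 5 of 19 alternatives, among them without control replicate 3 (adjusted p = 0.0283) and with library size as the only scaling (0.0125). Pglym78, the phosphoglycerate mutase between Pgk and Eno, was at 171 ± 23.3 and 199.9 ± 7.56 CPM (log2 fold change 0.22, SE 0.12, adjusted p = 0.386). The other gene with an unadjusted p under 0.05 was Pfrx, named after its values were seen, which makes and breaks down the phosphofructokinase activator fructose-2,6-bisphosphate. It was at 85.4 ± 13.98 and 144 ± 18.2 CPM (log2 fold change 0.76, SE 0.15, adjusted p = 0.0526).

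Hex-C, a second hexokinase gene, was far below Hex-A and varied widely within groups. It was at 3.74, 0.991 and 0.876 CPM in controls and at 4.90, 10.6 and 2.50 CPM with AKH. Control replicate 1 lay inside the AKH range. The ratio of Hex-A to Hex-C in RPKM was 12.9, 55.7 and 75.9 in controls and 9.04, 4.72 and 18.7 with AKH. These overlap (difference in log2 ratio -2.03, SE 0.98; exact two-sided permutation test, p = 0.2, and 0.267 after adjustment over the 4 pairs).

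A further 10 genes of that list were rare: Hex-t1, Hex-t2, Ald2, Pglym87, CG9961, CG2964, CG7069, CG7362, CG11249 and CG12229, grouped after their values were seen. Their summed level was 3.10, 12.8 and 3.17 CPM in control replicates 1 to 3 and 7.40, 12.1 and 3.13 CPM in AKH replicates 1 to 3. Control replicate 2 was the highest control for 10 of the 10 and AKH replicate 2 the highest AKH library for 9. CG7059, as rare but left out of that group, went another way among controls, where replicate 1 was highest. It was at 2.45, 1.95 and 1.75 CPM in controls and at 2.16, 2.27 and 2.09 CPM with AKH. The summed level of 13 male germline markers was 9.23, 38.2 and 10.4 CPM in controls and 30.4, 41.5 and 8.45 CPM with AKH. Those sums followed the same order of libraries as the paralog sums within each group. Among controls replicate 2 stood highest in both, and replicates 1 and 3 lay close together. The part of germline RNA in the paralogs' levels was not tested. Without control replicate 2 and AKH replicate 2, edgeR again called 0 of the 9 main genes. With fewer libraries, that fit called 100 genes higher and 127 lower over all genes, against 200 and 204 in the main fit.

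**Figure D4:**
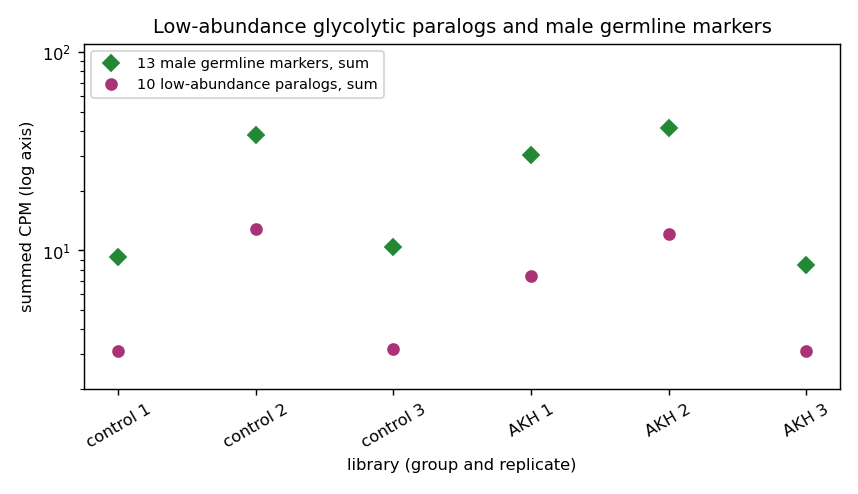
Summed CPM, on a log axis, of 10 rare glycolytic paralogs (circles) and of 13 male germline markers (diamonds) in each library. Both sums are highest in control replicate 2 and AKH replicate 2, at 12.8 and 12.1 CPM for the paralogs. The rare gene CG7059, highest among controls in replicate 1, is not part of the sum.

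Gluconeogenesis shares the reversible steps of glycolysis and bypasses the irreversible ones with its own enzymes. Of its 5 listed genes, all tested, 3 fell, 0 rose and 2 were not called, where 1.91% of all tested genes were called lower. The median log2 fold change was -1.14. Like the other lists, it was chosen with earlier results of these data known, so its share of calls is description only. The gene fbp encodes fructose-1,6-bisphosphatase, which reverses the phosphofructokinase step. It fell from 274, 232 and 327 CPM in controls to 137, 114 and 148 CPM with AKH (log2 fold change -1.06, SE 0.16, adjusted p = 0.0224). PCB, pyruvate carboxylase, fell from 1397, 1371 and 2028 CPM to 633, 689 and 855 CPM (-1.14, SE 0.20, adjusted p = 0.0361).

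Phosphoenolpyruvate carboxykinase has a pair of genes in the fly. Pepck2 fell from 628, 852 and 841 CPM to 201, 206 and 81.0 CPM (log2 fold change -2.25, SE 0.37, adjusted p = 0.0290). Pepck1 was at 1074, 1715 and 2228 CPM in controls and 652, 815 and 647 CPM with AKH (-1.25, SE 0.27, adjusted p = 0.0687). In each of these 4 genes the AKH libraries lay below all controls. The call of fbp was lost without control replicate 1 or any 1 AKH replicate (adjusted p up to 0.107). That of PCB was lost in all fits without 1 library except that without control replicate 3 (up to 0.160), and that of Pepck2 in all except that without AKH replicate 3 (up to 0.102). The muscle and midgut marker sums given above were also lower with AKH; their part in these decreases was not tested. The fifth gene, G6P, glucose-6-phosphatase, was rare in both groups (1.14 ± 0.335 and 1.64 ± 0.789 CPM, SD, n = 3 each).

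The opposed reactions of phosphofructokinase and fructose-1,6-bisphosphatase can be read as a ratio within a library. Pfk to fbp in RPKM was 0.0919, 0.0887 and 0.0770 in controls and 0.217, 0.266 and 0.213 with AKH. Every AKH ratio was above every control ratio. The log2 ratio differed by 1.43 (SE 0.13), which is a 2.69-fold change. The exact two-sided permutation test gave p = 0.1, the smallest possible here, and 0.2 after adjustment over the 4 pairs. In both groups fbp remained the more abundant of the pair per length.

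**Figure D5:**
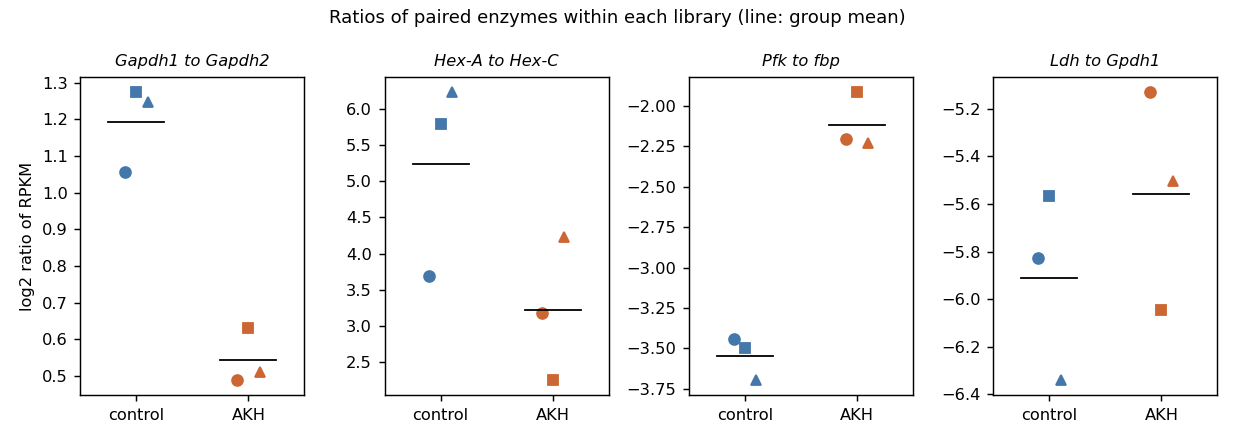
Log2 ratio of RPKM within each library for 4 gene pairs (circle, square and triangle are replicates 1, 2 and 3; the line is the group mean; each panel has its own axis). Groups are apart for Gapdh1 to Gapdh2 and for Pfk to fbp, which moved by -0.65 and 1.43, and overlap for Hex-A to Hex-C and for Ldh to Gpdh1.

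Of 12 listed genes of pyruvate use and NADH reoxidation, 11 were found and tested. Gpdh1 fell, 0 rose and 10 were not called, where 1.91% of all tested genes were called lower. The median log2 fold change was -0.09.

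Of 10 listed regulators, 8 were found and tested. Of these 1 fell, 0 rose and 7 were not called (median log2 fold change 0.10), against the same background of 1.91% called lower. The fallen gene was sug (sugarbabe), a sugar-responsive zinc finger factor, which was at 34.3, 50.1 and 69.6 CPM in controls and 20.1, 19.3 and 22.6 CPM with AKH. Its log2 fold change was -1.31 (SE 0.25, adjusted p = 0.0460). Leaving out control replicate 2 or any 1 AKH replicate ended that call (adjusted p up to 0.177). Mondo, the fly counterpart of the sugar sensor ChREBP, was at 177 ± 24.2 and 233 ± 24.0 CPM (0.39, SE 0.13, adjusted p = 0.193), and foxo, a factor held in check by insulin, at 71.7 ± 4.84 and 79.1 ± 3.74 CPM (0.14, SE 0.08, adjusted p = 0.427). ERR, the nuclear receptor that switches on glycolytic genes in the Drosophila embryo and larva, named after its values were seen, was at 16.1 ± 1.55 and 16.4 ± 0.599 CPM (0.02, SE 0.09, 95% interval -0.20 to 0.24, adjusted p = 0.935).

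The summed level of 12 ecdysone response genes, which change with larval stage, was 603, 894 and 468 CPM in control replicates 1 to 3 and 469.6 to 591 CPM with AKH. edgeR, DESeq2 and limma-voom called 0 of the 11 tested, against backgrounds of 3.77%, 8.28% and 3.48%. In the edgeR test 2 had an unadjusted p under 0.05, against a background of 18.0%. Control replicate 2 stood highest in that sum. Hr4, a nuclear receptor of the ecdysone response named after its values were seen, was at 6.71, 62.6 and 1.86 CPM in controls and at 2.22, 3.63 and 1.53 CPM with AKH. Among controls usp, Eip74EF, Eip75B, Eip78C, Hr3, ImpE1 and ImpE2 were likewise highest in replicate 2. Other genes of the list went another way. EcR (88.0, 71.0 and 102 CPM in controls) and ftz-f1 (9.23, 7.49 and 10.3 CPM) were lowest in replicate 2. Eip71CD and ImpL1 were highest in replicate 3. Control replicate 2 was the lowest of all 6 libraries for Pfk, Gapdh2, Pgk and Eno in CPM. Without it their log2 fold changes were 0.26, 0.37, 0.25 and 0.32, and edgeR called 0 of the 4 (adjusted p = 0.193 to 0.293). Over all genes that fit called 112 higher and 160 lower, against 200 and 204 with all 6 libraries, where it also called 0 of the 4.

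Neuronal and haemocyte markers summed to 294 to 411 and 246 to 328 CPM in controls and to 318 to 374 and 232 to 284 CPM with AKH. Of 7 haemocyte markers 1 was called lower, NimC1, a phagocytosis receptor of circulating blood cells. The background of lower calls was 1.91%. NimC1 fell from 6.42, 5.48 and 4.63 CPM to 1.34, 0.604 and 1.01 CPM (log2 fold change -2.48, SE 0.31, adjusted p = 0.0116). The other 6 were not called. Among them He was higher without overlap (mean 9.61 CPM in controls and 12.5 CPM with AKH). Pxn was lower without overlap (76.5 and 61.1 CPM), and for Hml, eater, Sr-CI and NimB4 the groups overlapped. The part of stage or of other tissues in the enzyme levels was not tested.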

How the data were processed

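Fat bodies were dissected and RNA taken with Trizol, and Illumina TruSeq RNA libraries were made, per the labels' protocols, for 3 control and 3 AKH overexpression samples. Raw counts per gene and, in another table, RPKM were deposited by the authors. The submitters' processing notes name build BDGP5, DESeq 1.10.1, HTSeq 0.5.4p3, TopHat2 2.0.9 and Bowtie2 2.0.6; the sources used here do not give their roles or the treatment of strand and of multiply matching reads. The reference annotation is of a later build, so no coordinates are given and it served only for names and for overlapping genes.

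The test was edgeR 4.0.16 (R 4.3.3) on the counts, with its default filter on low counts, TMM scaling and a quasi-likelihood F test of the group term, no covariate. CPM use TMM-scaled library sizes. The SE is the log2 fold change divided by the square root of F. The biological coefficient of variation (common) was 0.308. A count of 3 corresponds to 0.0907 to 0.109 CPM, for counting error only. No library repeats another of its group (chi-square 30.7 to 75.1 for each degree of freedom). Fits were tested on simulated data. Gene ratios used RPKM with exact permutation tests. Alternatives used DESeq2 1.42.0, limma 3.58.1 (voom, and log2(RPKM + 1) or log2(RPKM + 0.1)), other scalings, filters and thresholds, a replicate block, and fits without 1 library. After the data were seen, a fit without both libraries numbered 2 was added.

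Members and lists (140 names, 132 found) were chosen with earlier results of these data known. Named genes are the members, Akh, ratio pairs, and the called and the 2 most abundant genes of each pathway list; a gene that this rule selects is not reported here. Of 5 ratios planned, that of Pyk to PCB could not be computed. Plots were drawn with matplotlib 3.10.9.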

Additional observations from a re-analysis of the deposited data

How the results depend on the processing

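Of 171 member fold changes under 19 alternative fits, 161 kept their direction and their side of the threshold, 9 gained a call and 1 changed sign (Ald1, -0.017 to 0.20 over the fits without 1 library, negative without control replicate 2). Members called higher numbered 3 with DESeq2, 3 with library size as the only scaling and 2 with log2(RPKM + 1), against 0; members called lower numbered 1 with DESeq2, against 0. Leaving out 1 library gave 0 members called in either direction in every fit. Over all genes, 200 were called higher and 204 lower. These counts were 395 and 592 with DESeq2, 323 and 398 at an adjusted p under 0.1, 64 and 68 at 0.01, and 100 and 127 without both libraries numbered 2. They ranged from 74 to 293 and from 68 to 186 when 1 library was left out. The ratios of gene pairs kept their direction in every alternative.

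Deviations from group means correlated at -0.37, 0.60 and 0.50 between the groups for replicates 1, 2 and 3. Control replicates 2 and 3 correlated best with the AKH library of their own number, control replicate 1 with AKH replicate 3 (0.54). With 3 libraries in each group these correlations depend on each other. They cannot show whether replicate numbers pair the samples. With the replicate block 199 genes were called higher and 231 lower, 0 of them members, and the call of Gpdh1 was lost (adjusted p = 0.0506). The median of all genes moved by less than 0.1 on the log2 scale under each scaling. At 150 to 303 counts, Ldh is the member whose precision depth limits most.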
